A study of Mus musculus with 12 samples.

Results

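Conventional CD4+ T cells (Tconv) sorted from a tumour were compared with Tconv from the spleen of normal mice. The groups are those of the labels. The 2 tumour and 2 normal spleen libraries are 4 of the 12 messenger RNA libraries in the series, and 2 libraries of Tconv from the spleen of tumour-bearing mice gave the middle step. All 6 were CD4+ GFP-negative cells from C57BL/6 mice, enriched by negative selection before sorting. Tumour-bearing mice had been given 500000 TC-1 cells, a transplantable mouse lung epithelial tumour line, into a tail vein, and tissues were taken after 3 weeks. Normal mice carried no tumour, and neither the age of the mice nor the reporter behind GFP is stated in the labels. The other 6 libraries hold GFP-positive regulatory T cells (Treg) from the same 3 sites. They shared the estimate of spread and entered 1 comparison of their own. No label ties the paired libraries of a group to different mice, so p-values measure only the spread between these samples, which may be technical.

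Tconv are the CD4+ helper cells outside the Treg lineage. In the spleen most are naive or memory cells that recirculate through lymphoid tissue, which CCR7 lets them enter and KLF2 targets let them leave. Signals through the T cell receptor (TCR) switch on immediate early factors and then effector programmes, each with its own cytokines and homing receptors, and inhibitory receptors such as CTLA-4 and PD-1 follow. The series concerns interleukin 33 (IL-33), an alarm cytokine of stromal and epithelial cells, and its receptor ST2, encoded by Il1rl1.

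Total counts ran from 18624132 to 24111546 per library, and 13509 of 24062 genes passed the low-count filter and were tested. Levels are counts scaled to library size (CPM), given for library 1 and library 2 of a group. Changes are log2 fold changes ± SE, and a gene rose or fell where the Benjamini-Hochberg adjusted p of edgeR's quasi-likelihood test was under 0.05. The total change is tumour minus normal spleen, step 1 is tumour-bearing minus normal spleen, and step 2 is tumour minus tumour-bearing spleen. Over all tested genes 33.2% rose and 27.1% fell in the total change, 9.74% and 7.49% in step 1 and 26.4% and 22.8% in step 2, and the counts of each list stand against these shares. A list member near 0 in normal spleen, tested because another group holds it, could hardly fall, so such counts lean to rises. The first principal component of the 6 Tconv libraries held 86.8% of the variance and set the tumour libraries apart from the spleen libraries, and the second, with 6.67%, set the spleens apart. The tumour libraries were the least alike of the 3 pairs, with a correlation of log2 CPM of 0.984 against 0.994 in each spleen pair.

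Foxp3, the factor that defines Treg, checked the sort. It lay at 18.1 and 19.6 CPM in normal spleen Tconv, 13.3 and 16.8 in tumour-bearing spleen Tconv and 16.2 and 11.5 in tumour Tconv, against 989 and 1042, 1028 and 1004 and 1155 and 1246 CPM in Treg of the same sites. It fell in Tconv (−0.46 ± 0.14, edgeR adjusted p = 0.0145), a call lost without tumour library 2 (adjusted p = 0.145) or normal spleen library 2 (adjusted p = 0.0821). Cd4 lay at 1550.4 and 1507 CPM in normal spleen and 1417 and 1276 in the tumour and was not called (−0.18 ± 0.09, adjusted p = 0.0962). Of 12 T cell identity genes 2 rose and 6 fell in the total change, with a median of −0.24. The largest falls were Cd5 (−0.57 ± 0.07), Lck (−0.51 ± 0.07), Cd3g (−0.48 ± 0.07) and Cd3e (−0.45 ± 0.07). In such bulk libraries fewer cells of a type and less RNA per cell cannot be told apart. Of 14 Treg identity genes, most of which activated Tconv also express, 8 rose and 2 fell in the total change (median 0.64). In step 1, 8 rose and none fell (median 1.03), and in step 2, 5 rose and 5 fell. Of the 14, 4 rose in step 1 and fell in step 2. Lrrc32, which presents latent TGF-beta, went from 0.102 and 0.0953 to 3.16 and 5.99 CPM (5.49 ± 0.63) and Il10, an inhibitory cytokine gene, from 0.306 and 0.191 to 10.2 and 4.4 CPM (4.82 ± 0.50).

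The marker lists of several other cell types held more of the counts in the tumour libraries than in normal spleen, and those of macrophages and fibroblasts were higher in tumour library 2 than in library 1. The 17 macrophage and monocyte markers made up 0.0293% of counts in tumour library 1 and 0.0788% in library 2, against 0.00118% to 0.00152% in the 4 spleen libraries. Fibroblast markers (11 genes) held 0.0374% and 0.0997%, against 6.52e-05% to 6.79e-04%. Lung and tumour epithelium markers (17 genes) held 0.00990% and 0.0117%, against 4.38e-04% to 9.01e-04%. None of these 3 lists had a member at 0 counts over both tumour libraries, while 4, 3 and 10 members were at 0 over both normal spleen libraries, among them Marco, Mgp and Scgb3a2. Of 10 B cell markers 2 were at 0 in each Tconv group, and of the 3 tested none rose and 1 fell. Of the other marker lists 7 of 10 dendritic cell, 7 of 10 neutrophil, 3 of 4 mast cell, 4 of 7 NK and innate lymphoid, 2 of 3 plasma cell and 2 of 5 endothelial genes tested rose, and 1 neutrophil (Mmp9), 1 NK (Klrb1c) and 1 endothelial gene (Pecam1, −0.38 ± 0.09) fell. The fall of Mmp9 (−1.20) was not called with DESeq2 or limma-voom, and was −0.63 without tumour library 1 and −2.30 without library 2. The share of counts of the endothelial list was lower in the tumour, at 0.0241% and 0.0251%, than in normal spleen, at 0.0322% and 0.0318%. Mast cell markers held 0.000260% and 0.000303% in normal spleen and 0.00189% and 0.00135% in tumour libraries 1 and 2. The neutrophil count was 4 without tumour library 2 and the endothelial count 4 without library 1. A marker at 0 counts in normal spleen that passed the low-count filter through the tumour libraries could only rise. The counts of markers that rose therefore carry no support, while the shares of counts used members whether tested or not. Of tested members 15 of 16 macrophage, 10 of 10 fibroblast and 14 of 16 epithelial genes rose, and tumour library 2 exceeded library 1 by a median of 2.47, 2.55 and 1.54 times. The part of these transcripts in the changes of other genes was not tested, and the same ratio is given beside the main lists. Normal mice gave only spleen, and LG stands in the descriptions of the tumour libraries, so the effects of tumour and of its organ cannot be told apart.

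**Figure D1:**
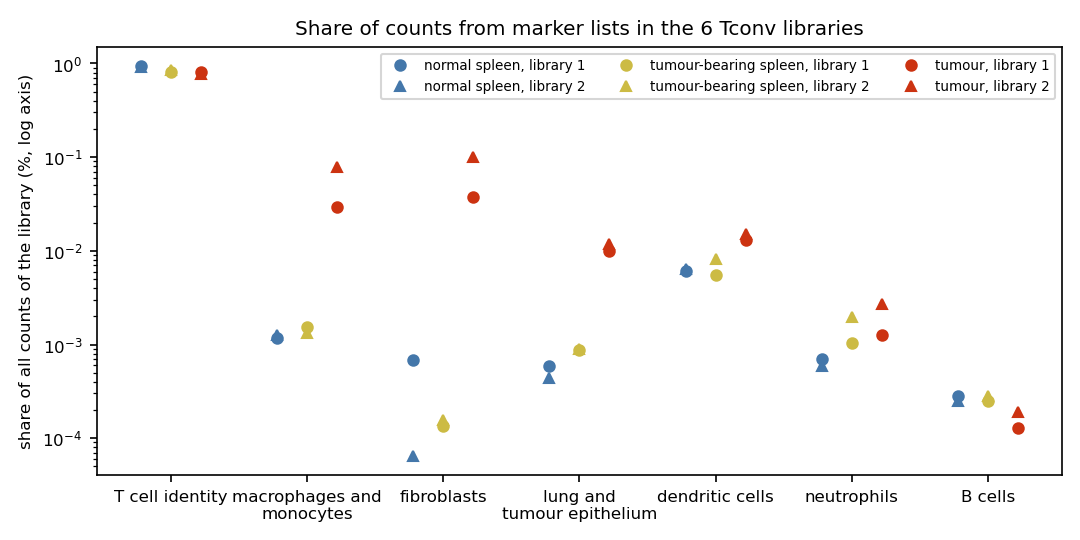
Share of all counts held by the T cell identity list and by 6 marker lists of other cell types (percent, log axis) in each Tconv library; colour gives the site, and circles and triangles are libraries 1 and 2. Macrophage and fibroblast markers reached 0.0788% and 0.0997% in tumour library 2, above the 0.0293% and 0.0374% of tumour library 1 and above each spleen library.

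From normal spleen to tumour 8148 genes (60.3% of 13509) were called. Of these 4489 genes rose (33.2% of those tested) and 3659 fell (27.1%), and 2765 (20.5%) rose and 436 (3.23%) fell at least 2-fold. The median change of all tested genes was 0.04. Of the genes at least 2-fold higher, 548 had 0 counts over both normal spleen libraries, 1019 (36.9%) had at most 3, and 794 had at most 3 in each spleen group. Among those 794, the 157 with a tumour mean of at least 5 CPM were a median of 2.62 times higher in tumour library 2 than in library 1. Among the 1971 others at least 2-fold higher, the 1036 above the same level had a median ratio of 1.17. Without tumour library 2, 3957 genes rose and 3296 fell.

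The 8 largest increases among well-counted genes (mean log2 CPM of at least 3) all started from 0 counts in both normal spleen libraries. Ptgs2, the inducible cyclooxygenase, reached 95.3 and 246 CPM in the tumour, at least 2312 times the floor of 3 counts over the normal spleen group. Ereg, an epidermal growth factor ligand, reached 60.2 and 165 CPM and Col6a3, a collagen chain, 54.4 and 131 CPM. Ace, Crabp1, Mmp2 and Hmga2, which encode the angiotensin-converting enzyme, a retinoic acid binding protein, a gelatinase and a chromatin protein of embryonic and transformed cells, lay between 33.6 and 104 CPM. In these 7 genes library 2 was 2.41 to 2.76 times library 1. Scgb1a1, the secretoglobin of airway club cells, was even, at 63.3 and 63 CPM.

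The largest falls started from counted levels in normal spleen, and both tumour libraries were low. Slc16a5, a monocarboxylate transporter gene (chromosome 11, 115462474 to 115474398, mm10), fell from 110.5 and 108 CPM in normal spleen through 64.3 and 64.8 to 10.4 and 9.53 in the tumour (−3.45 ± 0.09, adjusted p = 7.84e-11). Lpar5, a lysophosphatidic acid receptor gene (chromosome 6, 125067920 to 125082472), fell from 32.6 and 34.8 to 3.27 and 3.27 CPM (−3.36 ± 0.16). Cd160, a receptor for HVEM, fell from 12.7 and 13.7 to 2.43 and 1.59 CPM (−2.74 ± 0.20). Ddit4, an inhibitor of mTOR signalling that glucocorticoids and hypoxia induce, fell from 240.3 and 402 to 62.9 and 46 CPM (−2.56 ± 0.26). Klrb1c, Zfp937, Tor4a and Zfp324 fell by 2.13 to 2.24. A gene at or under 3 counts in normal spleen has little room to be called lower, so low starts were counted only among the increases.

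The TCR-induced and immediate early genes had the highest median change of the 23 programme lists. Of 26 tested, 22 rose and 2 fell, with a median of 4.44. In step 1, 9 rose and 2 fell (median 0.32, and 0.23 without normal spleen library 1). In step 2, 22 rose and 2 fell (median 2.89), and 8 of the 26 rose in both steps. Nr4a1, an orphan nuclear receptor gene that TCR signals switch on (chromosome 15, 101254269 to 101274795), lay at 52.7 and 55.9 CPM in normal spleen, 68 and 50.6 in tumour-bearing spleen and 737 and 732 in the tumour. Its relatives Nr4a2 (5.35 ± 0.18) and Nr4a3 (4.51 ± 0.14) rose too, and none of the 3 was called in step 1. Fosl2, an AP-1 subunit gene, stood at 17.2 and 22.6 CPM in normal spleen and 1753 and 1726 in the tumour (6.45 ± 0.19). Fosb (6.53 ± 0.84), Atf3 (8.45 ± 0.59) and Ier3 (6.88 ± 0.58) also rose, and Atf3 and Ier3 were over 2 times higher in tumour library 2. Members that fell were Egr3 (−1.01 ± 0.14), induced by TCR signalling, and Myc (−0.66 ± 0.12), a growth regulator. Among the 22 that rose, the ratio of tumour library 2 to library 1 had a median of 0.897. Immediate early genes also respond to tissue dissociation, and its part was not tested.

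Of 17 AP-1, BATF, IRF and effector regulators, 11 rose and 2 fell, with a median of 0.67. Crem, a cyclic AMP response factor gene, went from 14.1 and 11.8 CPM in normal spleen through 23.7 and 22.2 to 359 and 394 in the tumour. Bhlhe40, which supports cytokine production, went from 16.2 and 13.2 through 38.9 and 55 to 497 and 375 CPM. Nfil3 (4.08 ± 0.17) and Irf4 (2.79 ± 0.10), an effector factor gene, rose as well. Id2 and Id3, inhibitors of E proteins, went the other way, at −0.33 ± 0.12 and −0.82 ± 0.24. Id2 lost its call without normal spleen library 1 or tumour library 2, and Id3 changed by −0.34 without tumour library 1 and −1.57 without library 2.

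Inhibitory and costimulatory receptors split. Of 26, 14 rose and 9 fell, with a median of 0.69. Ctla4, which competes with CD28 for its ligands (chromosome 1, 60887000 to 60915832), went from 17.7 and 13.5 CPM in normal spleen through 49.9 and 51.9 to 329 and 282 in the tumour (4.29 ± 0.13, adjusted p = 2.28e-10). Tnfrsf4, the costimulatory receptor OX40 (chromosome 4, 156013843 to 156016612), went from 12.2 and 11 through 45.3 and 54.1 to 136 and 105 CPM (3.37 ± 0.13). The 3 pairs of libraries did not overlap in either gene, as in 81.2% of all tested genes between tumour and normal spleen, 61.8% in step 1 and 73.4% in step 2. Tigit, another inhibitory receptor, rose by 3.13 ± 0.24 and Havcr2 (TIM-3) by 4.04 ± 0.52, from 0.153 and 0.286 CPM. Cd160 and Tnfsf14 (LIGHT, −1.76 ± 0.21) were the members that fell furthest. The ratio of tumour library 2 to library 1 over the 14 that rose had a median of 0.850.

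Il1rl1, the receptor gene of IL-33 (chromosome 1, 40429570 to 40465415), lay at 0.764 and 1.33 CPM in normal spleen, 3.7 and 1.39 in tumour-bearing spleen and 60.1 and 98.6 in the tumour. It rose in the total change (6.23 ± 0.45, adjusted p = 2.99e-07) and in step 2 (5.01 ± 0.39) and was not called in step 1 (1.22 ± 0.73, adjusted p = 0.283). Il1rap, its coreceptor, went from 27.5 and 26.4 to 31.3 and 32.9 CPM (0.26 ± 0.08), a call lost without normal spleen library 1, normal spleen library 2 or tumour library 2. Il33 itself had 0 counts in normal spleen and 10 and 61 counts in the tumour libraries, at least 22.5 times the floor, and tumour library 2 was 4.91 times library 1. Of 25 IL-33, MyD88 and NF-kB signalling genes 19 rose and 2 fell (median 0.38). Tnfaip3, which encodes A20, a brake on NF-kB signalling (chromosome 10, 19000910 to 19015657), went from 100.4 and 107 through 209.8 and 199 to 4526 and 3359.9 CPM (5.25 ± 0.14). Nfkbiz, an NF-kB cofactor gene, rose by 3.68 ± 0.15, while Irak4 (−0.84 ± 0.08) and the adaptor gene Myd88 (−0.37 ± 0.06) fell.

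Among helper programmes the Th17 genes rose together in the total change. All 13 tested rose, with a median of 2.57, against 33.2% of all genes. Il17a, Il17f and Il22, at 0 to 2 counts over normal spleen, passed the low-count filter through other groups and could hardly be called lower. The share that rose therefore depends in part on the filter. Il17a had 0 and 1 counts in normal spleen and 4.74 and 6.03 CPM in the tumour, a ratio of 222 (95% counting interval 39.3 to 8789). Il22 went from 0 counts to 1.35 and 1.41 CPM, at least 18.7 times the floor. Il1r1, an interleukin 1 receptor gene that Th17 cells use, went from 0.560 and 1.24 to 12.2 and 20.1 CPM (4.15 ± 0.37). The 13 genes had a median ratio of 0.984 between the tumour libraries. The labels give no gate against gamma delta T cells or innate lymphoid cells, which also express these genes, and 1 gamma delta marker could be tested, Cd163l1 (0.102 and 0.143 to 0.620 and 0.907 CPM, 2.59 ± 0.80). The part of such cells was not tested.

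Of 13 Th2 and IL-33 responsive genes 10 rose and none fell (median 1.57). Areg, an epidermal growth factor ligand that ST2-bearing T cells can make, had 2 and 1 counts in normal spleen and 33.7 and 35 CPM in the tumour, a ratio of 465 (95% counting interval 159 to 2260). Ccr8, a chemokine receptor of Th2 cells and tissue Treg, went from 1.27 and 1.33 CPM through 4.01 and 6.24 to 59.7 and 50.8 (5.40 ± 0.20). Of 15 Th1 genes 9 rose and 2 fell (median 0.49). Ifng, the interferon gamma gene, went from 4.74 and 3.62 to 11.6 and 11.4 CPM (1.46 ± 0.24). Tbx21, the gene of the Th1 factor T-bet, fell (−0.61 ± 0.20), and that call was lost without normal spleen library 1 or tumour library 2.

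The follicular helper (Tfh) genes, which serve B cell help, split between the steps. In the total change 4 of 14 rose and 6 fell, a median of 0.31 that was −0.16 without tumour library 1, and 5 rose and 3 fell without normal spleen library 1. In step 1, 8 rose and none fell (median 0.95), and in step 2, 1 rose and 9 fell (median −0.83). Pdcd1, the gene of PD-1, went from 30.4 and 23.2 CPM through 72.3 and 96.5 to 126 and 97.6 (2.06 ± 0.18). Il21, the Tfh cytokine gene, went from 12.7 and 5.77 through 29 and 22.1 to 3.44 and 2.81 CPM, and Pou2af1 from 31 and 25.1 through 37.4 and 32.3 to 11.7 and 8.98. The step 1 count was 5 without tumour-bearing spleen library 2 and 4 without normal spleen library 2.

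Of 19 cytotoxic and NK-type genes 9 rose and 2 fell (median 0.74). Gzmb, the granzyme B gene, went from 1.53 and 0.763 CPM through 7.56 and 15.2 to 36.8 and 28.7 (4.84 ± 0.43) and Gzmk from 8.46 and 6.87 through 13.4 and 15.2 to 52.1 and 37.5 (2.55 ± 0.19). The members that fell were Xcl1 (−1.71 ± 0.31) and Crtam (−1.62 ± 0.19). Granzyme and NK receptor genes have close relatives, so their counts are uncertain to that extent. Of the CD8 T cell markers, Cd8a rose from 0.204 and 0.0953 to 0.451 and 0.907 CPM (2.18 ± 0.67), a call lost without tumour library 2 or normal spleen library 2, and Cd8b1 fell from 29 and 32.3 to 16.7 and 19.1 CPM (−0.78 ± 0.11). The part of CD8 T cells in the cytotoxic genes was not tested.

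Of 23 chemokine and lipid trafficking receptors 12 rose and 3 fell (median 0.66, and 1 fell without normal spleen library 1), and of 26 integrin and tissue retention genes 17 rose and 6 fell (median 0.82). Rgs1, a brake on chemokine receptor signalling, went from 14.9 and 12 CPM through 34.7 and 34.7 to 540.4 and 360.1 (5.06 ± 0.19), and its relative Rgs2 from 26.2 and 29.9 to 618 and 561 (4.39 ± 0.11). Ccr6, the receptor for CCL20, rose by 1.64 ± 0.18. Ccr1 went from 0 counts to 1.47 and 4.54 CPM, and was 3.09 times higher in tumour library 2. Lgals3 (4.0 ± 0.36) and Emp1 (4.16 ± 0.37) rose, with ratios of 1.87 and 2.30 between the tumour libraries. Itgb7, the gut-homing integrin chain, fell from 948 and 985 to 671 and 626 CPM (−0.58 ± 0.08).

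The naive and lymphoid homing list did not move one way. Of 20, 6 rose and 6 fell in the total change (median −0.12). Ccr7 went from 814 and 809 CPM in normal spleen through 554 and 601 to 1304 and 1429 in the tumour (0.75 ± 0.08), and Klf2 from 541 and 529 through 351 and 409 to 926 and 827 (0.71 ± 0.10). Il7r, the survival receptor of naive and memory cells, rose by 0.89 ± 0.12. Dapl1 (−1.04 ± 0.10) and Actn1 (−0.53 ± 0.11) fell. In step 1, 1 rose and 9 fell, and in step 2, 6 rose and 2 fell, with 4 of the 20 in the class that fell and then rose. In step 2, 8 rose and 4 fell without either tumour Treg library, 7 and 4 in a fit of the 6 Tconv libraries and 6 and 4 under library-size scaling.

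Gamma chain cytokine receptor and SOCS genes, which carry interleukin signals and their feedback, rose in 16 of 21 cases with 1 fall (median 0.79). Socs3 went from 163 and 176 CPM through 253 and 223 to 1006 and 799.8 (2.41 ± 0.13), and Pim1, a kinase downstream of STAT5, from 138 and 130.2 through 202 and 173 to 696 and 666 (2.34 ± 0.09). Cish, a feedback inhibitor, went from 25.7 and 27.3 through 82.3 and 83.8 to 129.5 and 88.7 CPM (2.04 ± 0.14). Il2rg, the common chain itself, fell (−0.36 ± 0.08).

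Interferon response genes rose in 29 of 40 cases and fell in 6 (median 0.70). In step 1, 4 rose and 6 fell, and in step 2, 30 rose and 2 fell. The step 1 counts were 1 and 3 without tumour-bearing spleen library 1 or normal spleen library 2, 2 and 3 without normal spleen library 1 and 2 and 6 without tumour-bearing spleen library 2. Cxcl10, a chemokine gene of the interferon response, went from 2.24 and 1.19 CPM through 3.18 and 3.77 to 49.4 and 44.6 (4.78 ± 0.24), and Mx1 from 2.95 and 2.48 through 5.94 and 9.02 to 31.6 and 23.5 (3.34 ± 0.24). Members that fell were Ifi47 (−0.63 ± 0.09), a GTPase gene, and Psmb9 (−0.56 ± 0.11), an immunoproteasome subunit gene. The 29 that rose had a median ratio of 0.833 between tumour library 2 and library 1.

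Replication and mitosis genes rose in 27 of 32 cases with 1 fall (median 1.71). Cenpf, a centromere protein gene, went from 0.866 and 0.620 to 7.67 and 14 CPM (3.87 ± 0.38) and Ccna2, cyclin A2, from 1.99 and 1.86 to 12.2 and 26.6 (3.35 ± 0.40). Mcm2, a replication helicase subunit gene, fell from 124 and 132 to 101 and 106 CPM (−0.31 ± 0.06). In step 1, 1 rose and 1 fell. The genes that rose were a median of 1.57 times higher in tumour library 2, and the part of the other cell types in this was not tested.

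Of 30 oxidative phosphorylation genes none rose and 16 fell (median −0.24, and 10 fell without normal spleen library 2), with small changes such as Sdha (−0.45 ± 0.06) and Uqcrc2 (−0.43 ± 0.07). Of 28 sterol and fatty acid synthesis genes 5 rose and 17 fell (median −0.45). Hmgcs1, an early step of sterol synthesis, went from 104 and 99.3 CPM through 59.7 and 66 to 58.8 and 67.2 (−0.69 ± 0.11). The members that rose were Scd1, Dgat1 (3.22 ± 0.10), Elovl6 (2.62 ± 0.14) and Dgat2 (2.18 ± 0.27), which act in fatty acid and triglyceride synthesis, and Insig1 (0.58 ± 0.09), a brake on sterol synthesis. Scd1 went from 0.153 and 0.0477 CPM to 12.2 and 19.5. Dgat1 went from 11.1 and 11.3 to 99 and 110.2 CPM. Of 27 glycolysis and hypoxia genes 10 rose and 5 fell, with a median of 0.06. Hk2, hexokinase 2, rose by 3.39 ± 0.23, Slc16a3, a lactate exporter, by 2.49 ± 0.22 and Vegfa by 5.05 ± 0.38, while Pdk1 fell (−0.48 ± 0.06).

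Heat shock and chaperone genes rose in 6 and fell in 4 of 18 cases (median 0.06), and by step none rose and 9 fell in step 1, and 13 rose and 1 fell in step 2. The 9 were 5 without normal spleen library 1 and 4 without tumour-bearing spleen library 2. Hspa1a and Hspa1b, inducible HSP70 genes that counting cannot always tell apart, went from 0.459 and 0.286 and from 0.611 and 1.19 CPM to 72.1 and 27.1 and to 93.4 and 39. Both were lower in tumour library 2. Bag3 (1.91 ± 0.15) and Dnajb4 (1.30 ± 0.10) rose and Pdia4 (−0.96 ± 0.07) and Hsph1 (−0.86 ± 0.17) fell. Of 15 glucocorticoid-responsive genes 9 rose and 4 fell (median 0.67), with Dusp1 (5.17 ± 0.44), Per1 (3.25 ± 0.11) and Irs2 (3.25 ± 0.09) among those that rose and Ddit4 and Sesn1 (−1.94 ± 0.12) among those that fell. Of 32 cytosolic ribosomal protein genes 5 rose and 6 fell (median −0.15). The number that fell was 3 to 10 under other scalings, 2 or 3 without a normal spleen library and 13 without either tumour Treg library.

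**Figure D2:**
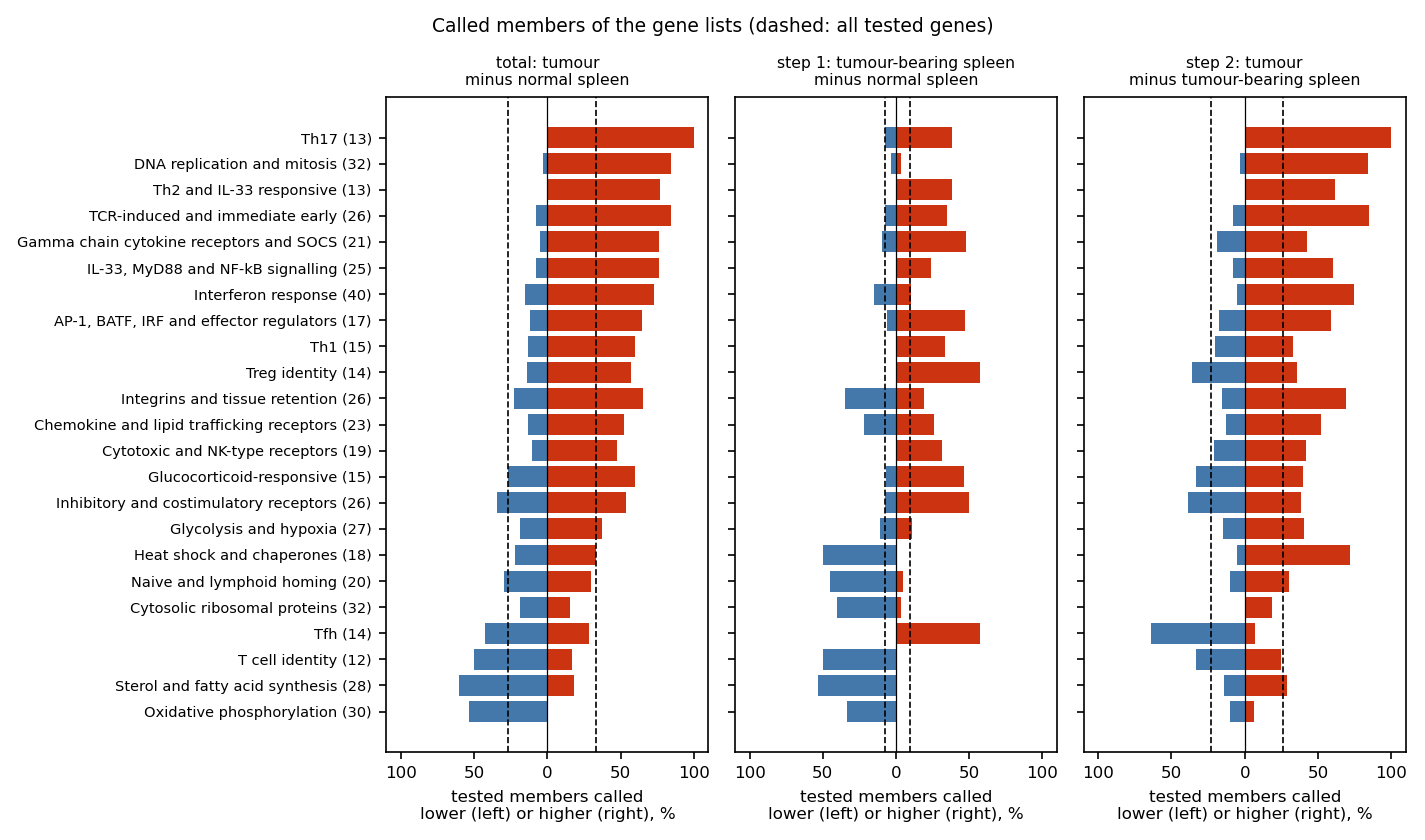
Share of tested members (percent, number tested in parentheses) called higher (right, red) or lower (left, blue) in the total change and in each step, for 23 lists; dashed lines give the same share of all tested genes, 33.2% and 27.1% in the total change. Th17 genes rose in 13 of 13 cases in the total change, and Tfh genes rose in step 1 (8 of 14) and fell in step 2 (9 of 14).

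In step 1, 1316 genes rose (9.74%) and 1012 fell (7.49%), and in step 2, 3562 rose (26.4%) and 3077 fell (22.8%), together 17.2% and 49.1% of genes. At least 2-fold, 419 (3.1%) rose and 18 (0.133%) fell in step 1, and 2206 (16.3%) and 425 (3.15%) in step 2. The difference between the steps was called for 21.6% of genes, 10% higher and 11.6% lower in step 2. With scaling by library size alone these were 1757 and 482 in step 1 and 3092 and 4365 in step 2, so the balance of directions depends on the scaling. It moved the median of all genes in step 2 by −0.108. The steps share the tumour-bearing spleen libraries with opposite sign, so an error in those libraries pushes a gene towards opposite directions.

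Step 1 counts depended on single libraries. They were 511 higher and 240 lower without normal spleen library 2, 658 and 327 without normal spleen library 1, 712 and 333 without tumour-bearing spleen library 1, and 839 and 611 without its library 2. Of 97 genes looked up that were called in step 1, 43 lost the call when some library was left out, against 18 of 165 in step 2 and 17 of 187 in the total change.

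In all, 371 genes (2.75%) rose in both steps. Plaur, the urokinase receptor gene (chromosome 7, 24462484 to 24475968), went from 1.63 and 2.05 CPM through 19.5 and 15.3 to 122 and 91.4, with 3.23 ± 0.22 in step 1 and 2.62 ± 0.16 in step 2. Ctla4 (1.70 ± 0.13 and 2.59 ± 0.12), Tnfrsf4 (2.10 ± 0.13 and 1.27 ± 0.11) and Tnfrsf18 (1.27 ± 0.10 and 0.68 ± 0.10), the gene of GITR, were of the same class. So were Bhlhe40, Crem, Nfil3, Rgs1, Tnfaip3, Nfkbiz, Tigit, Ccr8, Mx1 and Gzmb. Ier5l (3.98 ± 0.66 and 2.57 ± 0.30) and Trf, transferrin (2.48 ± 0.49 and 2.67 ± 0.27), had among the largest changes in both steps, although Trf shares 63.5% of its exonic bases with another gene model of the same strand. Dusp1 rose by 2.40 ± 0.41 in step 1, from 17.5 and 16.5 to 131 and 49.6 CPM, and by 1.54 without the higher library. The genes named so far in this paragraph kept their step 1 calls in each fit that left out 1 library. Gprc5a, from 0 and 0.143 through 0.417 and 0.359 to 8.91 and 10.6 CPM, did not.

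The promoters of 3 genes that rose in both steps are printed because they hold letters searched in all promoters: TGACTCA, the AP-1 consensus, and GAAA-NN-GAAA, letters of the interferon response element, on either strand. The sequences are RefSeq's on GRCm38.p6, from 250 bases before to 50 after the start, 5′ to 3′ on the gene's strand, with matches in capitals. Plaur is at chr7:24462233-24462532 on the plus strand, Tnfaip3 at chr10:19015361-19015660 and Cxcl10 at chr5:92348840-92349139 on the minus strand. The Tnfaip3 window lies almost wholly inside that gene's GENCODE span, 19000910 to 19015657, so RefSeq and GENCODE place its start differently.
Plaur: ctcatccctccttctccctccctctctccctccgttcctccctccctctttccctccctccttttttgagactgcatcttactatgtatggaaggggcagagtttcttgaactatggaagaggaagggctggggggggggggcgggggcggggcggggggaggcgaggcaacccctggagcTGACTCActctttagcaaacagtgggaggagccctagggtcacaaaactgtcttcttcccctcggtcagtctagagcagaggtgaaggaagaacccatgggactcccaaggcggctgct
Tnfaip3: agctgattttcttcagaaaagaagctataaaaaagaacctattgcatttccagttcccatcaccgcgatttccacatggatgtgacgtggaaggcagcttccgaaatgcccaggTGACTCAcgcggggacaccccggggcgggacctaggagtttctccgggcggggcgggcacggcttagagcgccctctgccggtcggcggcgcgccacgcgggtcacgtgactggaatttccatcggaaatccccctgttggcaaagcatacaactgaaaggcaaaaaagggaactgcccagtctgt
Cxcl10: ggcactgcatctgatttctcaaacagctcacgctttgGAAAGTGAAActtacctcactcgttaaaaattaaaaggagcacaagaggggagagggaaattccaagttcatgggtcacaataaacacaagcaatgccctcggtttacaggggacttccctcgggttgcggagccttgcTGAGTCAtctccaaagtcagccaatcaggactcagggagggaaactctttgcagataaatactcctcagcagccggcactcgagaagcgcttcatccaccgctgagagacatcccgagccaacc
Plaur and Tnfaip3 each hold 1 TGACTCA on the gene's strand, and Cxcl10 holds 1 on the other strand and 1 GAAA-NN-GAAA. The step 1 call of Cxcl10 (1.03 ± 0.33) was lost without normal spleen library 2 or either tumour-bearing spleen library. Of the 13509 tested genes, 10133 had a promoter in the table, and TGACTCA was in 4.66% of them and in 5.20% of all 32851 promoters. It was in 7.14% of the 280 genes that rose in both steps, 6.25% of 224 that rose then fell and 4.56% of 285 that fell in both. TGACTCA was also in 5.02% of 757 that rose in step 2 alone and 5.56% (1) of 18 TCR-induced and immediate early genes. Among 30 interferon response genes it was in 23.3% (7). GAAA-NN-GAAA was in 3.75% of tested genes, 8.11% of 111 that fell then rose and 53.3% (16) of 30 interferon response genes. These shares describe letters in a window and were not tested.

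Another 372 genes (2.75%) fell in both steps. Slc16a5 changed by −0.76 ± 0.08 and then −2.70 ± 0.09. Xkrx went from 34.5 and 36.9 CPM through 20.3 and 20.6 to 7.28 and 9.48 (−0.81 ± 0.14 and −1.28 ± 0.15), Parp11 from 67.1 and 70.8 through 41.1 and 45.4 to 19.6 and 24.7 and Nacc2 from 33.9 and 38.2 through 18 and 18.8 to 10.3 and 12.8. Prdm16, a zinc finger factor gene, changed by −1.03 ± 0.22 and −1.0 ± 0.25, with a step 1 call lost without normal spleen library 1 or tumour-bearing spleen library 1. The step 2 call of Prdm16 also did not hold in every fit that left out a library. Pdia4, an endoplasmic reticulum chaperone gene, Icam2 and Dapl1 were of this class, and the step 2 call of Dapl1 was lost without either tumour-bearing spleen library. Of the 372, 1 gene fell at least 2-fold in each step, against 100 of the 371 that rose in both.

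Other genes took opposite directions. Of these 309 (2.29%) rose and then fell, and 209 of them were not called in the total change. Il2ra, the interleukin 2 receptor alpha chain (chromosome 2, 11642807 to 11693193), went from 16 and 15.6 CPM in normal spleen to 42.5 and 65.9 in tumour-bearing spleen and 18.3 and 17.2 in the tumour (1.78 ± 0.16 and −1.61 ± 0.16). Klrk1, the NKG2D receptor gene, went from 9.73 and 9.3 through 29.6 and 47.5 to 9.42 and 13.9 CPM. Slc25a53 (1.80 ± 0.15 and −1.81 ± 0.15) and the integrin chain Itgb8 (2.22 ± 0.32 and −1.60 ± 0.30) did likewise. Each of these 4 was higher in both tumour-bearing spleen libraries than in the other 4 Tconv libraries. Cd160 rose (0.93 ± 0.15) and then fell below its start (−3.66 ± 0.19). Ptpn5, from 2.75 and 1.14 through 5.11 and 9.11 to 1.58 and 0.771 CPM, Klrb1c (1.54 ± 0.30), Il21 (1.47 ± 0.38) and Cxcr5 (0.77 ± 0.23) were of the class too, with step 1 calls lost without single spleen libraries.

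The reverse path, falling and then rising, held 152 genes (1.13%), of which 96 were not called in total. Cyp51, a sterol synthesis enzyme, went from 90.6 and 87.8 CPM through 37.3 and 43.9 to 67.5 and 84 (−1.13 ± 0.13 and 0.90 ± 0.13). Ccr7 changed by −0.49 ± 0.08 and 1.24 ± 0.08 and Klf2 by −0.49 ± 0.10 and 1.20 ± 0.10, both ending above normal spleen. The step 1 call of Klf2 was lost without tumour-bearing spleen library 1. Gbp10, a guanylate-binding protein gene, went from 8.61 and 8.53 through 5.11 and 4.67 to 12.1 and 11 CPM, and shares 46.3% of its exonic bases with another gene model. Gpr15, Rap1gap2 and Lgmn were named by the same rule, but each lost its step 1 call without single spleen libraries. With library-size scaling this class held 60 genes and the one that rose and then fell 577.

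Step 1 alone was the path of 292 genes that rose (2.16%) and 110 that fell (0.814%), where step 2 was not called and differed from step 1. Neb, which encodes the muscle protein nebulin (chromosome 2, 52136647 to 52378474), went from 1.27 and 1.86 CPM in normal spleen to 97.1 and 90.6 in tumour-bearing spleen and 99.1 and 117 in the tumour (5.89 ± 0.24 and 0.20 ± 0.15). Ston1, an endocytosis adaptor gene, went from 6.01 and 4.77 to 86.6 and 88.8 and 88.9 and 60.9 CPM and Zscan10 from 3.87 and 5.43 to 28.4 and 29.1 and 39.5 and 27.3. The feedback inhibitor Socs1 (1.55 ± 0.12 and 0.09 ± 0.11) and Pdcd1 (1.66 ± 0.18 and 0.40 ± 0.17) shared this class. So did Cables1, from 0.0509 and 0.286 CPM in normal spleen to 3.07 and 5.61 and 5.41 and 4.63, and Bicd1, from 1 count over the normal spleen libraries to 0.625 and 0.583 and 0.846 and 1.18 CPM. Those that fell in step 1 alone were led by the sterol enzymes Msmo1 (−0.90 ± 0.14) and Hmgcs1 (−0.69 ± 0.11), with Arhgap29 (−0.87 ± 0.14) and Tagln2 (−0.76 ± 0.09), an actin-binding protein gene, and Lair1 (−0.64 ± 0.15), whose call depended on single libraries. Of 32 ribosomal protein genes 10 were in that class. Over the whole list 13 fell in step 1, against 1 without either normal spleen library, 0 without tumour-bearing spleen library 1 and 22 without either tumour Treg library.

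Step 2 alone was the path of 1015 genes that rose (7.51%) and 893 that fell (6.61%). Of the 1015, 909 had over 3 counts in each Tconv group. By contrast, 794 genes at least 2-fold higher in the total change had at most 3 counts in each spleen group. Most of those 794 therefore lay outside this class, which also needs a called difference between the steps. The largest increases among well-counted genes of this class were Ddr2, Col1a2, Col4a1, Mt2 and Cav1, genes of collagens, a collagen receptor, a metallothionein and a caveolin. They had 0 to 2 counts over the tumour-bearing spleen libraries and reached 14.6 and 37.4, 47.8 and 96.8, 63.4 and 151, 15.7 and 48.4 and 19.1 and 43.3 CPM, each at least 2.03 times higher in tumour library 2. Nr4a1 (3.63 ± 0.13), Nr4a2, Nr4a3, Irf4 (2.5 ± 0.10), Il1rl1, Dgat1, Hk2 and Bag3 were of the same class, with ratios between the tumour libraries of 0.752 to 1.64. Ddit4 (−2.88 ± 0.26), Zfp937 (−2.60 ± 0.19) and Sostdc1 (−3.06 ± 0.64) led those that fell, with Rln3 (−2.52 ± 0.62) and Mmp9 (−2.31 ± 0.42). Undecided between the steps were 2024 genes (15%) that rose and 1503 (11.1%) that fell in step 2 and 344 (2.55%) that rose and 378 (2.8%) that fell in step 1, and 5746 (42.5%) were called in neither.

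**Figure D3:**
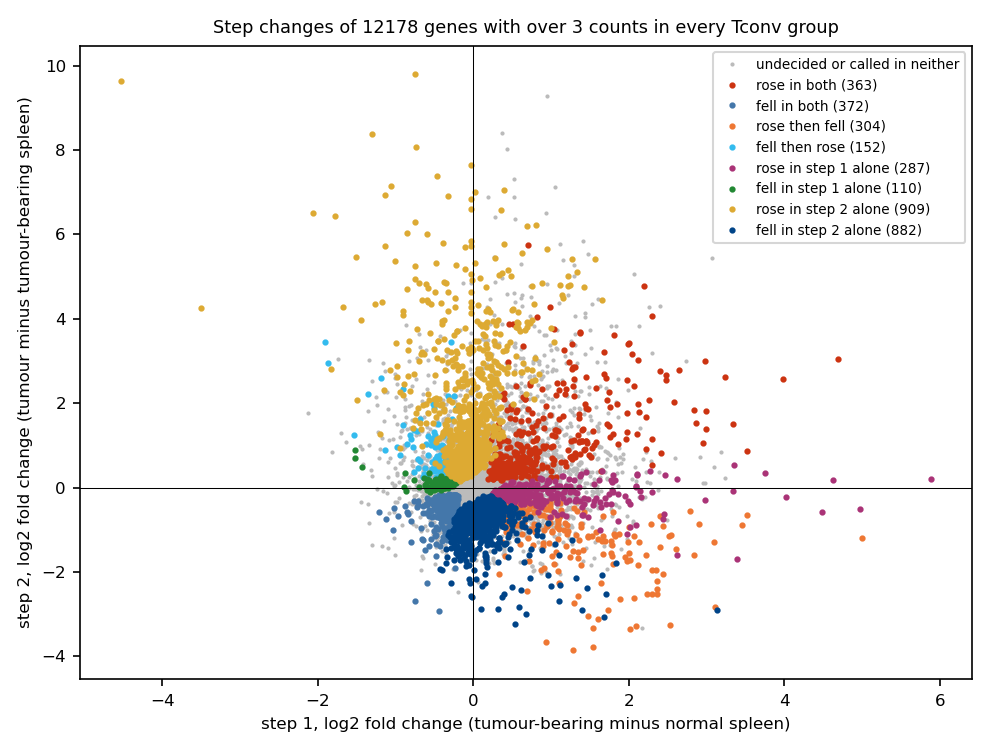
Step 1 (x axis) and step 2 (y axis) log2 fold changes of the 12178 tested genes with over 3 counts in each Tconv group, coloured by class, with the number plotted per class in the legend. Genes that rose in both steps (363 plotted) lie at the upper right, and those that rose and then fell (304) at the lower right.

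**Figure D4:**
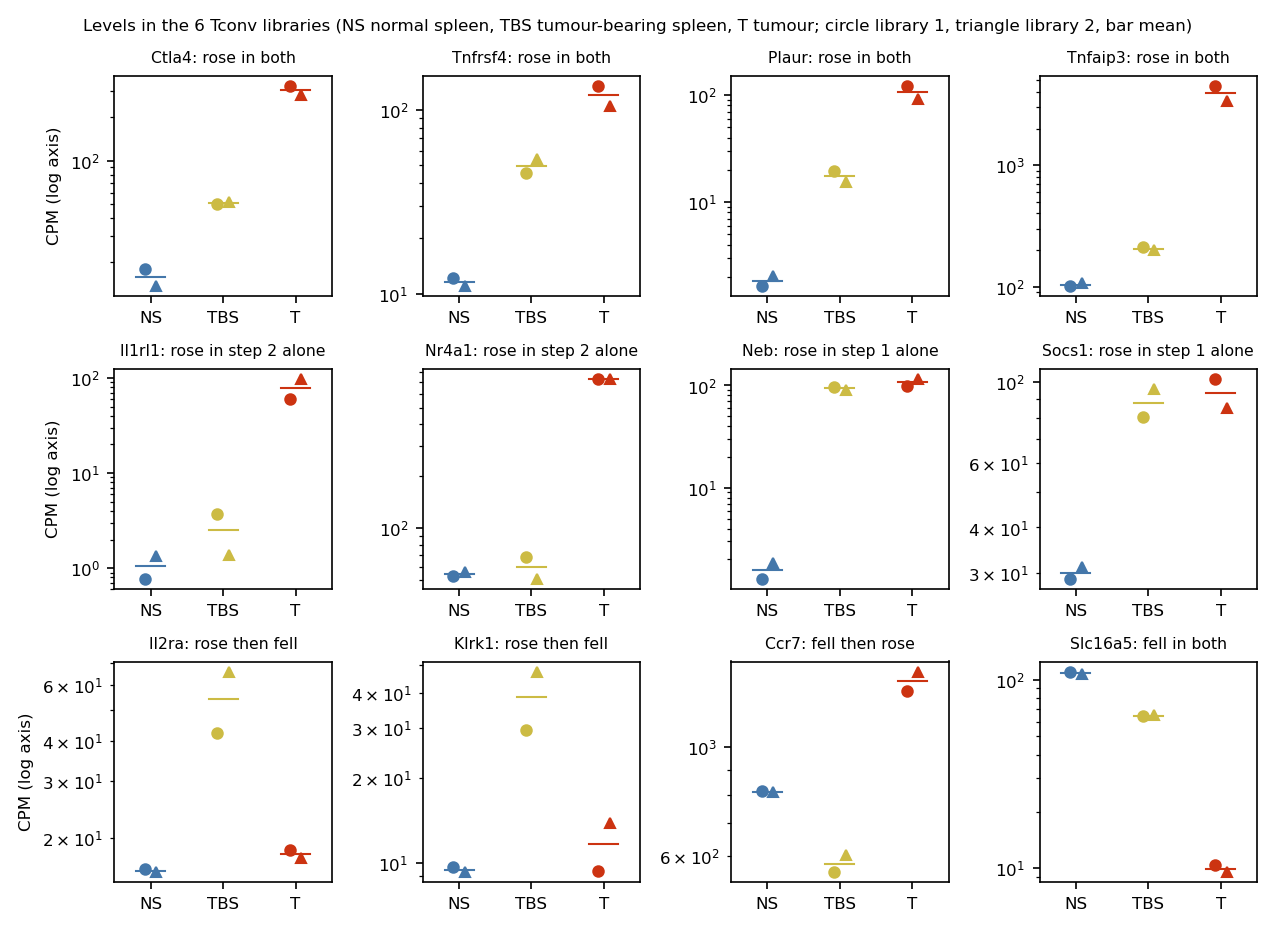
Level of 12 genes in the 6 Tconv libraries (CPM, log axes that differ between panels, no axis starting at 0); NS, TBS and T are normal spleen, tumour-bearing spleen and tumour, circles and triangles libraries 1 and 2, bars group means. Ctla4 rose at both steps. The rise of Il1rl1 was called only from tumour-bearing spleen to tumour and that of Neb only from normal to tumour-bearing spleen. Il2ra returns from 42.5 and 65.9 CPM to 18.3 and 17.2 CPM.

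The total change was set against that of Treg over the same sites by a test of the difference. It was higher in Tconv for 2240 genes (16.6%) and lower for 1669 (12.4%), together 28.9%, and at least 2-fold for 836 (6.19%) and 303 (2.24%). Il1rl1 rose from 37.5 and 59.5 to 461 and 441 CPM in Treg (3.22 ± 0.28), less in log2 terms than in Tconv (difference 3.01 ± 0.60, adjusted p = 0.00276), while its level stayed higher in Treg. Ctla4 differed by 1.43 ± 0.17 and Tnfrsf4 by 1.58 ± 0.17, again from lower levels in Tconv. Id2 fell in Tconv and rose in Treg from 37.9 and 39.5 to 675 and 673 CPM (difference −4.45 ± 0.18). Plaur (−0.02 ± 0.29), Ptgs2, Ereg and Ace showed no called difference. Gene models overlap some of the genes named: 27.2% of the exonic bases of Tnfrsf18, 73.5% of Mt2 and 19% of Hspa1a lie under a model on the other strand, and 30.5% of Il2rg and 25.9% of Ifng under one on the same strand. Whether counting used strand is not stated, so their counts are uncertain to that extent.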

How the data were processed

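Messenger RNA of sorted CD4+ T cells was sequenced on an Illumina NextSeq500 from TruSeq Stranded libraries after RNeasy Plus Micro extraction, per the labels' protocols. STAR, featureCounts and the mm10 build are named in the submitters' processing notes, without versions or strand setting. The deposited values are whole-number counts per gene, with no normalization by the authors, in 6 groups of 2 libraries. All 12 libraries were fitted together with edgeR 4.0.16 in R 4.3.3 (TMM scaling, low-count filter by group, quasi-likelihood test, 6 residual degrees of freedom, Benjamini-Hochberg adjusted p under 0.05), after a check on simulated data. Of 24062 genes 13509 were tested, and 5873 had no counts. A gene has a step class "alone" where 1 step was called and the difference between the steps was called.

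A gene at 0 in a group is compared with a floor of 3 counts over that group, and one with 1 to 3 counts by a ratio with an exact 95% interval, both for counting error only. Total counts set the depth, 18624132 to 24111546 per library. The parts compared, the 36 gene lists (23 programmes and 13 cell type marker lists) and the tests were chosen with earlier results of these data known. Genes were named by rule: the 8 largest total changes per direction at a mean log2 CPM of 3 or more, 5 per step class, up to 4 per list and 2 against its direction, and 5 per direction of the difference from Treg. Each of these was drawn from genes called in the comparison concerned, so its call follows from the rule. Apart from these, Foxp3, Cd4, Il1rl1, Il33 and Il1rap were to be named whatever their call. Nr4a1, Nr4a2, Nr4a3 and Insig1 were added outside the rule. Alternatives were DESeq2 1.42.0, limma-voom (limma 3.58.1), other scalings, filters, thresholds and samples, the replicate number as a block and leaving out each library. Positions are from the GENCODE annotation of the mm10 assembly. A few genes picked this way are not reported here.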

Additional observations from a re-analysis of the deposited data

Results flagged for a closer look

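The 10 genes below were named by rule among those whose total change from normal spleen to tumour differed between Tconv and Treg. Only genes called by the test of the difference in edgeR could be named, so their adjusted p was low by selection. The total change was higher in Tconv for 5. Ptrf (adjusted p = 0.000335), Ltbp1 (0.0144) and Cyp26b1 (0.0183) went from 0 counts in normal spleen Tconv to 14.8 and 29.7, 17.7 and 51.1 and 13.8 and 32.3 CPM in tumour Tconv, each at least 2 times higher in library 2. In Treg they went from 2.59 and 2.76, 1.09 and 1.34 and 0.920 and 0.846 CPM to 26 and 27, 33.2 and 36.8 and 27 and 28.6. The calls of Ltbp1 (adjusted p = 0.0518 and 0.0602) and Cyp26b1 (0.0635 and 0.0737) were lost without normal spleen Tconv library 1 or 2. Lypd6b (adjusted p = 2.62e-04) went from 39.9 and 38.1 to 20.7 and 20.2 CPM in Tconv and from 1.25 and 2.27 CPM to 0 counts in Treg. Gucy1a3 (adjusted p = 1.37e-07), a guanylate cyclase subunit gene, went from 6.37 and 5.63 to 9.31 and 7.71 CPM in Tconv and from 49.6 and 37.7 to 1.22 and 1.4 in Treg.

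It was lower in Tconv for the other 5. Sulf2 (adjusted p = 0.00528) went from 3.21 and 2.53 to 25.2 and 67.3 CPM in Tconv and from 0.0418 and 0.0890 to 49 and 65.8 in Treg. Sv2c (adjusted p = 5.44e-05) went from 0.662 and 1.33 to 4.46 and 2.22 in Tconv and from 0.962 and 1.11 to 152 and 137 in Treg. Cx3cr1 (adjusted p = 7.30e-07), the fractalkine receptor gene, went from 3.72 and 3.53 to 8.06 and 8.35 in Tconv and from 0.502 and 0.623 to 41 and 34 in Treg. Fam46a (adjusted p = 7.50e-08) and Cxcr6 (adjusted p = 1.77e-07), the receptor gene for CXCL16, fell in Tconv, from 106 and 100.3 to 56.1 and 54.2 CPM and from 72.4 and 64 to 47.9 and 52. In Treg they went from 42.4 and 39.1 to 526 and 661 and from 2.8 and 3.78 to 63.8 and 55.2 CPM. The fall of Cxcr6 in Tconv was not called without tumour library 1 (adjusted p = 0.0598) or normal spleen library 1 (adjusted p = 0.0993).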

How the results depend on the processing

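At least 2-fold, 2765 genes rose and 436 fell in total, 419 and 18 in step 1 and 2206 and 425 in step 2, and 836 and 303 differed from Treg. The classes then held 100 (rose in both), 1 (fell in both), 80 (rose then fell), 5 (fell then rose), 141 and 4 (rose or fell in step 1 alone) and 676 and 262 (step 2 alone). At an adjusted p of 0.01, step 1 had 603 and 329, step 2 1994 lower, the difference from Treg 1334 and 897, and the classes, in that order, 152, 98, 105, 40, 146, 19, 539 and 412. With library-size scaling 482 genes fell in step 1, and the classes that fell in both, rose then fell, fell then rose, rose or fell in step 1 alone and fell in step 2 alone held 231, 577, 60, 449, 28 and 1792. DESeq2 gave 169 genes that fell in step 1 alone, and a fit of only the 2 groups compared 1763 lower in step 2.

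Without single libraries the ranges were 3612 to 4579 higher and 2920 to 3884 lower in total, 511 to 1582 and 240 to 1288 in step 1, 2969 to 3624 and 2289 to 3267 in step 2, and 1575 to 2320 and 1026 to 1808 for the difference from Treg. The classes ranged over 152 to 421, 85 to 497, 129 to 352, 50 to 199, 135 to 396, 14 to 175, 508 to 1257 and 418 to 978. With 1 library left in a group, it is assumed to vary like the others. With the replicate number as a block, 4463 rose and 3626 fell in total, 1311 and 989 in step 1 and 3556 and 3025 in step 2. The numbers were not taken to pair the libraries, since same-number correlations were −0.129 between normal spleen and tumour Tconv, −0.0253 between the spleens and 0.0877 between tumour-bearing spleen and tumour. Over 0.1 were tumour Tconv with tumour Treg (0.148), tumour-bearing spleen Tconv with Treg of that spleen (0.121) and those Treg with tumour Tconv (0.104). The block gave 2238 and 1623 genes for the difference from Treg. The crossed pairing, added after seeing the data, gave 4474 and 3630. Of the values of single genes under the alternatives, 11710 kept direction and side of the threshold, 768 kept direction but lost the call and 0 reversed. Genes at a few counts in spleen are limited by depth. The cause was not tested for any of these shifts.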
